A study of Cavia porcellus with 9 samples.

Results

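The genes described here encode proteins of the interphotoreceptor matrix and of photoreceptor adhesion in the guinea pig retina. They are Impg1, Impg2, Rbp3, Crb1, Egflam, Eys and Prom1, 7 of the 19962 rows of the deposited count table. They were chosen by function around Impg1, which was selected on its measured level, higher under green than under blue light. Differences between green and blue light are therefore given for these genes as a description, with no test. Of the 7 genes, 6 had counts and entered the fit over 15469 genes, and Eys was listed at 0 in all 9 libraries.

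The series measured the retinal transcriptome of male tri-colour Dunkin-Hartley guinea pigs that arrived at 2 weeks of age, were kept for 8 weeks in green, blue or white light on a 12:12 cycle, and are labelled as 12 weeks old at sampling. No transgene or drug is named, and white light is the reference. Each light has 3 libraries, numbered here in order of deposition. The titles give 6 animal labels in all, 2 per light: the green libraries are 11, 11 and 16, the blue ones 2R-23, 32 and 32, and the white ones 6, 6 and R-23. The labels do not tell if 2R-23 and R-23 are a single animal, and they were treated as separate. Green libraries 1 and 2 carry the same eye label, the right eye of animal 11, and differ in their titles only by a "-B" ending on library 1. The pairs from animals 32 and 6 are a right and a left eye. The libraries of a light are thus partly samples of a shared animal, in green of a shared eye label, and p-values measure the spread between libraries. Libraries held from 62155041 to 74979806 counts. In CPM (counts per 1000000, scaled by TMM factors), 14 rod markers summed to between 43339.5 and 55282 over the 9 libraries.

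The interphotoreceptor matrix fills the space between photoreceptor outer segments and the pigment epithelium. Impg1 and Impg2 encode its hyaluronan-binding glycoproteins, and both are known from inherited macular or rod disease in people. Rbp3 encodes the secreted carrier of retinoids in that matrix, a gene whose loss is known to give long, myopic eyes in mice. Crb1 encodes a polarity protein of the outer limiting membrane, where photoreceptors and Müller glia adhere. Egflam encodes pikachurin, which joins photoreceptor terminals to bipolar cells through dystroglycan, Prom1 encodes a membrane protein at the base of outer segment discs, and EYS is an extracellular protein around the photoreceptor cilium.

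Against white light, 0 of the 6 detected genes passed under green or under blue light at an adjusted p under 0.05 in edgeR. The widest separation lay between the coloured lights, where Impg1, picked on that comparison, stood 1.43 times higher under green than under blue. Prom1 had means above the white mean under both coloured lights. For Rbp3, Crb1 and Egflam the widest fitted difference between any 2 lights was 10.5%, in Egflam between green and blue.

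**Figure D1:**
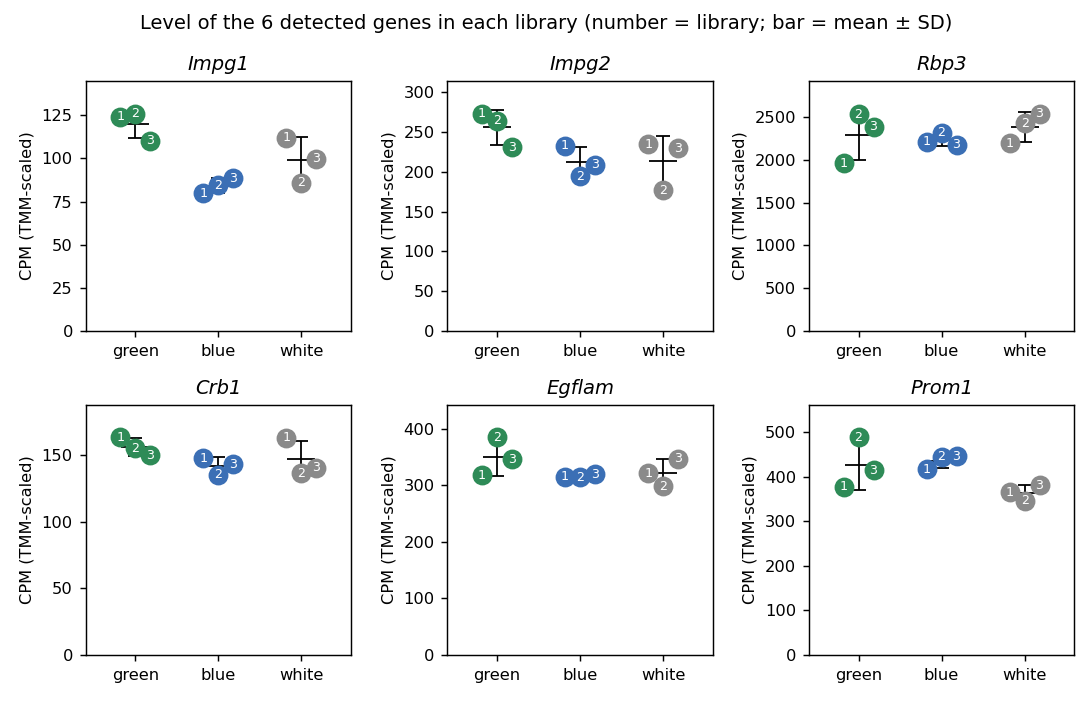
Level in CPM (y axis, from 0, a separate scale per gene) of the 6 detected genes in each of 9 libraries (numbered points) under green, blue and white light; bars give the mean ± SD of 3 libraries. For Impg1 the green libraries lie from 110.2 to 126 CPM and the blue ones from 79.8 to 88.5 CPM, with the white libraries spanning the gap.

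Impg1 reached 124, 126 and 110.2 CPM in green libraries 1 to 3, 79.8, 84.3 and 88.5 CPM in blue and 112, 85.7 and 99.8 CPM in white. All green libraries lay above all blue ones, and white library 1 lay above green library 3 while white library 2 lay within the blue range. The mean level was 120.04 ± 8.55 CPM under green, 84.2 ± 4.35 under blue and 99.1 ± 13.1 CPM in white (SD, n = 3). The lowest Impg1 count was 5689, for which counting alone gives an error of 1.33%, or 2.65% if 4 units of the table make 1 fragment. In a whole retina, fewer cells of a type and less RNA per cell cannot be told apart.

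On the log2 scale Impg1 differed from white light by 0.28 ± 0.10 (SE) under green (edgeR adjusted p = 0.840) and by -0.24 ± 0.10 under blue (edgeR adjusted p = 0.999955). These contrasts share their green or blue libraries with the comparison on which the gene was picked, so they are not independent of that choice. Between green and blue the fitted log2 difference was 0.51 ± 0.10, which ran from 0.46 to 0.57 over 21 other ways of fitting. When a single library was left out it lay between 0.47 and 0.57. Libraries of a light that share an animal label did not always lie close: white libraries 1 and 2, the right and left eye of animal 6, were 0.38 apart in Impg1 and 0.41 apart in Impg2 on the log2 scale. That gap within an animal is wider than the mean difference of Impg1 from white light under either colour. The other pairs lay closer in Impg1: green libraries 1 and 2 were 0.02 apart and blue libraries 2 and 3 were 0.07 apart. The means of these green and blue pairs lay 0.18 and 0.11 from the third library of their light in Impg1. Green libraries 1 and 2 were also close in Impg2 (0.05 apart) and Crb1 (0.07 apart). They were farther apart in Rbp3 (0.37), Prom1 (0.37) and Egflam (0.28). In Rbp3, Prom1 and Egflam that gap within a shared eye label is wider than the green minus white difference of the gene.

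Impg2, the transmembrane relative of Impg1, was at 273, 264 and 231 CPM in green, at 232, 194 and 208 in blue and at 234, 176 and 229 CPM in white. Green libraries 1 and 2 were the highest of all 9, and the 3 lights overlapped. Its log2 difference from white was 0.26 ± 0.12 under green (edgeR adjusted p = 0.852) and -0.01 ± 0.12 under blue (edgeR adjusted p = 0.999955), and green minus blue was 0.27 ± 0.12. In the green libraries Impg1 amounted to 45.5, 47.7 and 47.8 counts per 100 counts of Impg2, in the blue ones to 34.4, 43.3 and 42.5, and in the white ones to 47.8, 48.6 and 43.5. The means of this ratio were 47.0 ± 1.28 in green, 40.1 ± 4.96 in blue and 46.6 ± 2.71 in white, with blue library 1 the lowest and white library 3 just above blue library 2.

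**Figure D2:**
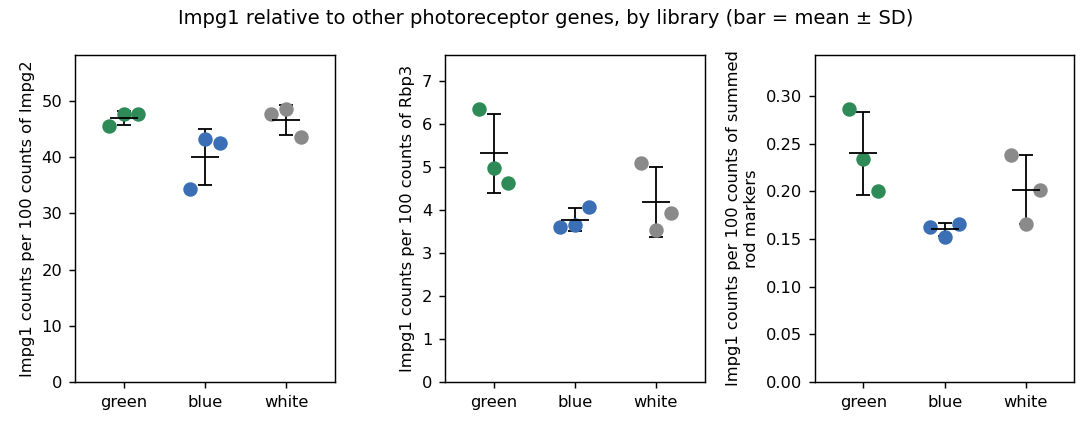
Impg1 counts per 100 counts of Impg2 (left), of Rbp3 (middle) and of the summed rod markers (right), y axes from 0, with a point per library and bars for mean ± SD of 3 libraries per light. Relative to rod markers the green libraries lie from 0.200 to 0.286 and the blue ones from 0.152 to 0.166, while white spans 0.165 to 0.238.

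Impg1 was also set against markers of the rods, the main photoreceptors of this retina. Per 100 counts summed over 14 rod markers it stood at 0.286, 0.234 and 0.200 in green, at 0.162, 0.152 and 0.166 in blue and at 0.238, 0.165 and 0.202 in white. As the numerator is the level on which Impg1 was picked, this ratio is a description too. The summed rod markers themselves ran from 43339.5 to 55102 CPM in green, 49189.7 to 55282 in blue and 47008 to 51846 CPM in white, with green library 1 the lowest of the 9.

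Rbp3, the retinoid carrier, ran from 1957 to 2538 CPM, a highest level 1.30 times the lowest, against 1.58 times for Impg1 and 1.54 times for Impg2. It was at 1957, 2532 and 2385 CPM in green, 2213, 2317 and 2173 in blue and 2194, 2427 and 2538 CPM in white. The lights overlapped, and green library 1 was the lowest of the 9 libraries. Its log2 difference from white was -0.06 ± 0.10 under green (edgeR adjusted p = 0.982) and -0.09 ± 0.10 under blue (edgeR adjusted p = 0.999955). The green difference turned positive, to 0.08, without the libraries of green and white whose titles end in "-B", which the labels do not explain.

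Eys had 0 counts in every library. With 3 counts as the limit, a count of 0 leaves room for a level as high as 0.0385 to 0.0483 CPM, depending on the library (counting error only). The gene is known to be disrupted in mice and rats. The row says nothing of the light groups, and the annotation behind the counts is not stated in the labels or headers.

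Crb1, the outer limiting membrane gene, was at 163, 155 and 149.9 CPM in green, 148, 135 and 143 in blue and 163, 137 and 141 CPM in white. All green libraries lay above all blue ones, with green library 3 just above blue library 1, and the white libraries overlapped both. The log2 differences from white were 0.09 ± 0.08 under green (edgeR adjusted p = 0.965) and -0.05 ± 0.08 under blue (edgeR adjusted p = 0.999955). Green minus blue was 0.14 ± 0.08.

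Egflam, which encodes pikachurin, was at 317, 385 and 346 CPM in green, 315, 314 and 319.9 in blue and 321, 298 and 347 CPM in white. The blue libraries were almost level, with a coefficient of variation (CV) of 0.999%, against 9.67% in green and 7.59% in white. The log2 difference from white was 0.12 ± 0.09 under green (edgeR adjusted p = 0.952) and -0.03 ± 0.09 under blue (edgeR adjusted p = 0.999955). Without green library 2 the green difference fell to 0.04. It rose to 0.18 without green library 1 and to 0.23 without both "-B" libraries.

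Prom1, the disc membrane gene, was at 378, 489 and 414 CPM in green, 417, 445 and 446 in blue and 365, 346 and 380.4 CPM in white. All blue libraries lay above all white ones, and green library 1 fell within the white range. Prom1 differed from white by 0.26 ± 0.09 under blue (edgeR adjusted p = 0.992) and by 0.23 ± 0.09 under green (edgeR adjusted p = 0.850), neither past the threshold. Green and blue means were 427 ± 56.3 and 436 ± 16.2 CPM, against 364 ± 17.4 CPM in white, and green minus blue was -0.03 ± 0.09. These 2 comparisons share the white libraries. Without green library 2 the green difference from white fell to 0.12, and without the "-B" libraries it was 0.34 (edgeR adjusted p = 0.466, the smallest of any of these genes in any fit; over the alternatives it rose to 1 for Prom1).

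**Figure D3:**
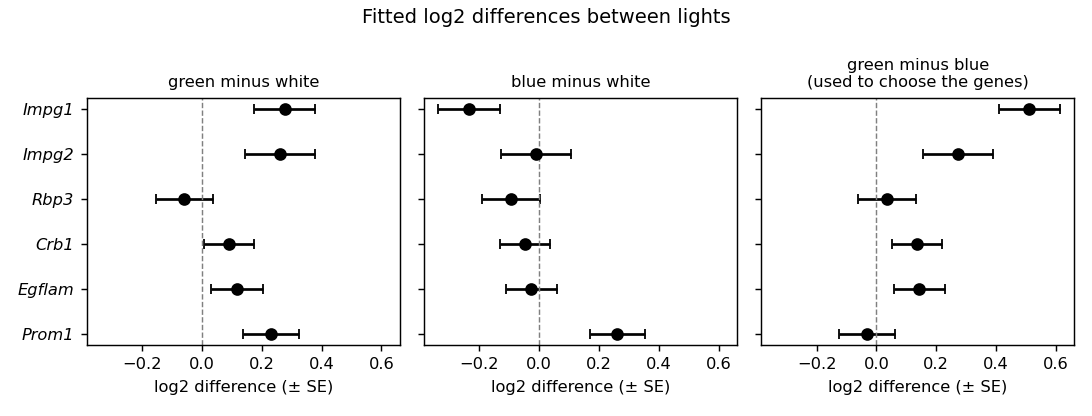
Fitted log2 differences (x axis, points, with bars for ± SE) of the 6 detected genes for each colour against white (left, middle) and green minus blue (right), the last being the comparison used in choosing the genes. Impg1 lies at 0.28, -0.24 and 0.51, and Prom1 at 0.23, 0.26 and -0.03.

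Counted together, 5 of the 6 genes had a higher fitted level in green than in white, with a median log2 difference of 0.17, where 52.4% of all genes were higher and the median was 0.01. In blue 1 of the 6, Prom1, was higher than in white and the median was -0.04, against 51.5% of all genes and a median of 0.00481. At an adjusted p under 0.05 edgeR called 0 of the 6 in either comparison, where it called 0.00646% of all genes under green and 0.00646% under blue. DESeq2 also called 0 of the 6 in either comparison, against 0.155% of all genes under green and 0.181% under blue. An unadjusted edgeR p under 0.05 was reached under green by 3 of the 6, all higher (Impg1, Impg2 and Prom1), where 3.52% of all genes were higher and 2.29% lower at that p. Under blue it was reached by Prom1, higher, and Impg1, lower, where 2.47% of all genes were higher and 1.98% lower. Since Impg1 was picked for high green and low blue levels, its own entries in these counts follow in part from that choice.

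Libraries of green and white overlapped for all 6 genes, where 5.34% of all genes lay wholly higher and 4.74% wholly lower in green. Blue and white were apart for Prom1 alone, which was higher, where 5.75% of all genes lay wholly higher and 4.14% wholly lower in blue. Green and blue were apart for 2 of the 6, Impg1 and Crb1, both higher in green. The background there was 7.23% higher and 6.94% lower, and nothing is read from this count because that comparison chose the genes.

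Over all 9 libraries the CV was 17.4% for Impg1, 13.5% for Impg2, 11.2% for Prom1, 8.21% for Rbp3, 7.88% for Egflam and 7.09% for Crb1. The median over the 10599 genes with a symbol and a mean of at least 5 CPM was 9.86%. The order of libraries was shared in part. Green libraries 1 and 2 and white library 1 held the top 3 places for Impg1, Impg2 and Crb1, and white library 2 and blue library 2 were among the lowest 3 for each of them. Rbp3 and Prom1 had other orders, with green library 1 the lowest for Rbp3 and the third lowest for Prom1.

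Genes with a like pattern were sought among the other 10598 genes with a symbol and a mean of at least 5 CPM, by Pearson's r of log2 CPM over the 9 libraries, as a description. Nearest to Impg1 were Fam120c (r = 0.946, Spearman's rank correlation = 0.850), the methyl-CpG-binding domain gene Mbd5 (0.937, rank correlation 0.917), Lrrtm2, a synaptic adhesion gene (0.927, rank correlation 0.917), the chromatin remodeller gene Chd2 (0.922, rank correlation 0.850) and Rasgrp1, a Ras activator gene (0.921, rank correlation 0.917). Fam120c was at 10.3 ± 0.633 CPM in green, 7.35 ± 0.157 in blue and 8.995 ± 0.902 in white. The nearest genes to the other members were Hs6st2, a heparan sulfate sulfotransferase gene, for Impg2 (r = 0.982, rank correlation 0.950), Emd for Rbp3 (0.961, rank correlation 0.950) and Zfr for Crb1 (0.980, rank correlation 0.967). They were Dpysl5 for Egflam (0.934, rank correlation 0.617) and Myo5b, an unconventional myosin gene, for Prom1 (0.940, rank correlation 0.883). Best matches out of so many genes are high by selection, and the libraries share animals and light groups.

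The partner genes of these proteins were listed by role: matrix components and receptors, chondroitin sulfate synthesis, retinoid handling, the Crumbs complex, dystroglycan and its synaptic partners, outer segment discs, and retinal adhesion. Of 178 partner genes 171 were matched in the table and 166 were tested. At an adjusted p under 0.05 edgeR called 0 of the 166 under green and 0 under blue (smallest adjusted p 0.764 and 0.674), and DESeq2 called 0 in both. At an unadjusted p under 0.05 stood 12 higher and 1 lower under green, and 4 higher and 4 lower under blue, where the shares over all genes were 3.52% and 2.29% under green and 2.47% and 1.98% under blue. The median log2 difference of the 166 was -0.01 in each comparison.

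**Figure D4:**
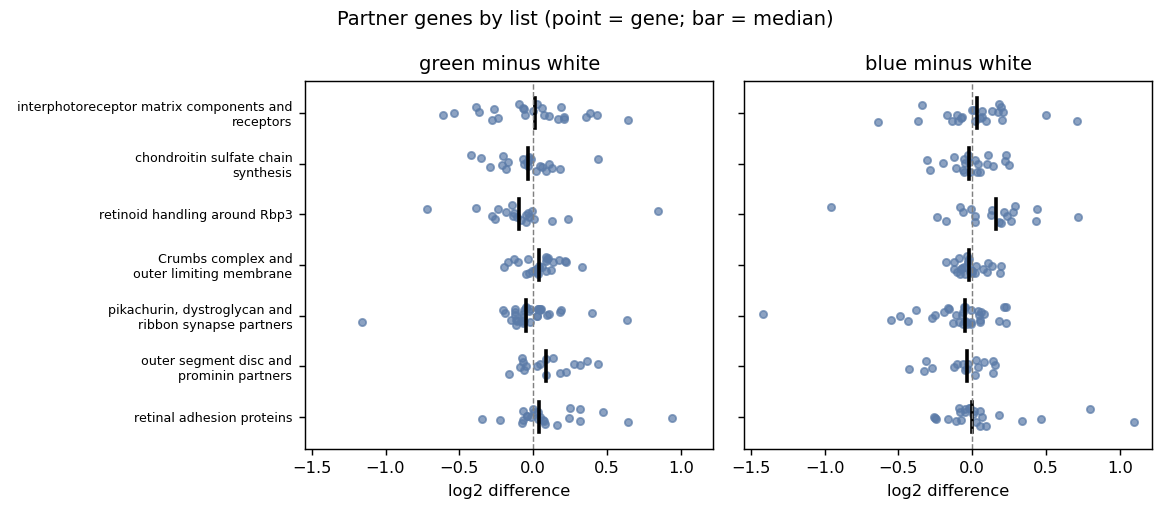
Log2 differences (x axis) of the 166 tested partner genes, in rows by list, for green minus white (left) and blue minus white (right); each point is a gene and the bar is the list's median (a gene in more than 1 list is drawn in each). Medians lie between -0.10 and 0.09 under green and between -0.05 and 0.16 under blue.

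Of 24 tested matrix components and receptors, 12 were higher and 12 lower in green and 15 higher in blue, with medians of 0.01 and 0.04. Tnfaip6, which encodes a hyaluronan-binding protein, was at 6.69 ± 1.34 CPM in green, 4.96 ± 0.520 in blue and 4.30 ± 0.317 in white, and the green and white libraries did not overlap (edgeR adjusted p = 0.768). Mertk, the receptor with which the pigment epithelium takes up outer segments, was at 14.5 ± 1.51 CPM in green and 11.1 ± 1.09 in white. The proteoglycan gene Bcan was at 14.5 ± 2.81 and 11.3 ± 2.14 CPM. Among 22 genes of chondroitin sulfate synthesis 8 were higher in green and 10 in blue. Xylt1, which starts the sugar chain, was at 37.5 ± 2.79 CPM in blue and 46.3 ± 6.97 in white (edgeR adjusted p = 0.999955). Its highest blue library, at 39.73 CPM, lay just below the lowest white one, at 39.83 CPM. Over all genes 4.14% lay wholly lower in blue than in white.

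Retinoid handling genes, the surroundings of Rbp3, were higher in green for 4 of 20 and in blue for 14 of 20, with median log2 differences of -0.10 and 0.16. None passed. Rbp4, the retinol carrier, was at 66.8 ± 23.5 CPM in green and 37.2 ± 6.56 in white (edgeR adjusted p = 0.791), and Rdh8, a photoreceptor retinol dehydrogenase gene, at 262 ± 8.53 and 298 ± 26.5 CPM. Several genes of this list belong to the pigment epithelium, whose share varied widely between libraries. The summed level of 20 pigment epithelium markers was 536, 1013 and 513 CPM in green libraries 1 to 3, 789, 821 and 984 CPM in blue and 620.5, 1007 and 561 CPM in white, with Slc6a20 alone of the 20 at 0 in all. Under green 5 of the 19 tested markers were higher than in white, and under blue 13. Rpe65 ran from 7.76 to 144 CPM and Pmel from 3.89 to 95.1 CPM. The list also holds pigment cell genes, and not all of its genes went with Rpe65. Trpm1, which enters both the sum and the covariate used below, had means of 136 CPM in green, 107 in blue and 124 in white. Those of Rpe65 were 41.4, 74.5 and 68.1 CPM. The cell source of Trpm1 in these libraries was not tested. The sum and these counts are thus only a rough measure of the pigment epithelium. The part of this tissue in the retinoid list was not tested.

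The mean log2 level of the pigment epithelium marker list, a rough measure of that tissue, was used as a covariate. The green minus blue difference of Impg1 was then 0.46 ± 0.12, against 0.51 ± 0.10 without it. Müller glia markers, the cells that meet photoreceptors at the outer limiting membrane, summed to between 10981 and 11851 CPM in green, 11876 and 13352 in blue and 10783 and 12730 CPM in white. Of 13 tested, 3 were higher in green than in blue. Their part in the differences of Crb1 and Impg1 was not tested. Lens markers summed to between 99.8 and 120 CPM in green, 74.5 and 115 in blue and 47.7 and 96.8 CPM in white, and their part was not tested either.

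In the Crumbs complex and outer limiting membrane, 18 of 26 genes were higher in green than in white and 9 of 26 in blue, with medians of 0.04 and -0.02. Ctnna1, the alpha-catenin of adherens junctions, was at 202 ± 23.2 CPM in green, 184 ± 7.08 in blue and 161 ± 9.30 in white. Both coloured lights lay wholly above white, but neither difference passed (edgeR adjusted p = 0.768 under green and 0.999955 under blue). Among 34 dystroglycan and synaptic partners of pikachurin, 13 were higher in green and 10 in blue. Cacna2d4, a calcium channel subunit gene of photoreceptor terminals, was at 329 ± 20.6 CPM in blue and 396 ± 37.6 in white (edgeR adjusted p = 0.968). Sgca, a sarcoglycan gene, was at 1.04 ± 0.405 CPM in green, 0.869 ± 0.613 in blue and 2.32 ± 0.526 in white.

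Of 17 outer segment disc genes, the surroundings of Prom1, 11 were higher in green and 7 in blue, with medians of 0.09 and -0.04. Rpgrip1, a connecting cilium gene, was at 127 ± 4.27 CPM in green and 98.4 ± 22.8 in white, and Pcdh15, a protocadherin gene of sensory cells, at 151 ± 31.04 CPM in green, 97.3 ± 1.496 in blue and 121 ± 28.7 in white. Among 24 retinal adhesion genes 16 were higher in green and 12 in blue. Nfasc, the neurofascin gene of axon adhesion, was at 395 ± 149 CPM in green, 439.6 ± 18.7 in blue and 206 ± 53.5 in white (edgeR adjusted p = 0.768 and 0.674). Lama1, a basement membrane laminin gene, was at 128 ± 24.1 CPM in green, 77.9 ± 12.5 in blue and 81.9 ± 13.6 in white (edgeR adjusted p = 0.764 for green minus white).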

How the data were processed

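Retinal RNA was sequenced with paired-end reads on an Illumina HiSeq instrument, per the labels' protocols. The authors deposited whole-number counts for 19962 genes in 9 libraries. No aligner, counter, strand setting, build or annotation is stated (not given in the sources used here), and gene lengths were not used, so levels are not compared between genes. Low counts pile up on multiples of 4 (2014 values equal 4 and 472 equal 3), so a unit may not be 1 fragment. edgeR 4.0.16 (R 4.3.3) was fitted to all genes and libraries with a term for light and no other. After filterByExpr (minimum count 10, total 15) 15469 genes remained; libraries were scaled by TMM, and genes tested by the quasi-likelihood test with Benjamini-Hochberg adjustment (threshold 0.05). SEs are the log2 difference over the square root of F. Alternatives were DESeq2 1.42.0, limma-voom (limma 3.58.1), other scalings and filters, 2 groups alone, counts summed per animal label or divided by 4, covariates (pigment epithelium level, "-B" suffix) and libraries left out. The code was tested on simulated data.

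The members and gene lists were chosen with earlier results of these data known. Named genes are the 7 members, up to 3 genes per list (mean of at least 1 CPM) from those with the smallest unadjusted p against white, the nearest genes by correlation (5 for Impg1, 1 for each other member), and Rpe65 and Pmel as checks; Arr3, also planned as a check, was not analysed here, and 1 planned rod marker is not reported here. All 7 member symbols match the RefSeq names table of mCavPor4.1. No protein or promoter sequence was used here.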

Additional observations from a re-analysis of the deposited data

How the results depend on the processing

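Over 21 alternatives, edgeR, DESeq2 and limma-voom called 0 of the 6 detected members and 0 of the tested partner genes against white light, under green and under blue. Impg1, Impg2, Crb1, Egflam and Prom1 kept the sign of their green minus white difference in all 21, as did Impg1, Rbp3 and Prom1 for blue minus white. The size of the Impg1 difference from white depended on single white libraries: under green it was 0.18 without white library 2 and 0.37 without white library 1, and under blue -0.33 and -0.15. Green minus white was likewise 0.14 for Impg2 without white library 2, 0.04 and 0.17 for Crb1 without white library 2 and 1, and 0.12 for Prom1 without green library 2. Small differences changed sign. Rbp3 under green was 0.0821 without both "-B" libraries and ran from -0.14 to 0.0390 when a single library was left out. Under blue, Impg2 was 0.0029 with the pigment epithelium covariate, 0.0315 with a term for the "-B" suffix, 0.0329 when both "-B" libraries were dropped, and -0.13 to 0.0517 with a library left out. Crb1 under blue ran from -0.10 to 0.0250 and Egflam from -0.0789 to 0.0187 with a library left out, and Egflam was 0.0187 without both "-B" libraries. None of these differences passed in any fit, and the cause of the sign changes was not tested. No paired analysis was possible because the labels give no replicate numbers shared between lights, and whether blue 2R-23 and white R-23 are the same animal is not stated. With 3 libraries and 2 animal labels per light, spread between libraries limits these genes more than depth does.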

Other observations

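Photoreceptor markers outside the matrix and adhesion lists held 2 genes that DESeq2 called and edgeR did not. Against white, DESeq2 called 1 of 13 cone markers under green and 1 of 13 photoreceptor transcription factors under blue. It called 0 of 14 rod markers under either. The cone marker list as a whole was split: 7 were higher and 6 lower in green than in white, with a median log2 difference of 0.03. Among the photoreceptor transcription factors 4 were higher and 9 lower in blue than in white, with a median of -0.06. Over all genes DESeq2 called 0.155% under green and 0.181% under blue. Cngb3, the beta subunit gene of the cone channel, was at 53.1 ± 5.14 CPM in green, 34.3 ± 7.93 in blue and 31.6 ± 5.80 in white, and the green libraries lay above all white ones. Its green minus white log2 difference was 0.75 ± 0.18, with an adjusted p of 0.703 in edgeR and 0.0184 in DESeq2, the range over 21 alternatives being 0.0184 to 1. Samd7, a transcriptional repressor gene of photoreceptors, was at 33.6 ± 2.58 CPM in green, 22.3 ± 2.29 in blue and 35.6 ± 7.93 in white. All blue libraries lay below the white ones for this gene. Its blue minus white log2 difference was -0.67 ± 0.15, with an adjusted p of 0.656 in edgeR and 0.0144 in DESeq2, the range over 21 alternatives being 0.0144 to 1. Nr2e3, a rod identity factor gene, was at 465 ± 87.9 CPM in green, 440.5 ± 38.7 in blue and 336 ± 16.2 in white, without overlap between white and either colour (edgeR adjusted p = 0.768 and 0.968). DESeq2 was the 1 alternative of the 21 that called Cngb3, and likewise Samd7.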
